A study of Mus musculus with 8 samples.

Results

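Axon guidance receptors and ligands were examined in mouse preSC cells, a culture model of precancerous neuroendocrine lung cells, after Max had been targeted. The genes were chosen by symbol and comprised the Eph receptors and ephrins, the semaphorins with their plexin and neuropilin receptors, the Slits and Robos, and the netrins with Dcc and the Unc5 receptors. They numbered 69 of the 23284 genes in the count files, with 22 genes in the Eph-ephrin system, 31 in the semaphorin-plexin system, 7 in the Slit-Robo system and 9 in the netrin system. The symbol rule itself used no measured values, although it was set with earlier results of these data known.

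RNA sequencing had been performed on 4 Max knockout libraries (MaxKO 1 to 4) and 4 control libraries (Ctrl 1 to 4). Both groups were polyclonal preSC populations of strain 129/SvJ; C57BL/6, derived from mice with the alleles Chga-GFP, Rblox/lox, p53lox/lox and p130lox, and both were selected with puromycin and expanded without further treatment. The knockout populations had received a guide RNA against Max and the controls a control guide. Polyclonal populations can mix edited and unedited cells, the edited share was not measured here, and whether replicate libraries are separate cultures is not stated, so a p-value reflects only library-to-library spread, perhaps technical. The state of the lox alleles is not given in the sources used here.

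The cues and receptors of axon guidance steer growing axons by attraction or repulsion, and most of them also act outside the nervous system in cell sorting, migration, vessel growth and epithelial organisation. Ephrins are ligands held at the cell surface, so that Eph receptors read contact with neighbouring cells. Semaphorins signal through plexins, with neuropilins as co-receptors for most secreted class 3 members, Slits repel through Robo receptors, and netrins attract through Dcc and repel through the Unc5 receptors. In the mouse lung, Robo receptors are known to be needed for neuroendocrine cells to gather into clusters. MAX is the obligate partner of MYC proteins and also a partner of the MNT, MXD and MGA repressors.

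The libraries held 14952291 to 19480947 reads counted in genes in MaxKO and 13711278 to 19804949 in Ctrl. Levels are given as CPM, reads scaled to the size of the library, after TMM scaling, differences as log2 fold changes of knockout over control, and a gene was called higher or lower at an adjusted p under 0.05 in edgeR's quasi-likelihood test over 13358 tested genes. Max itself lay at 42.3 to 68.0 CPM in MaxKO and 61.9 to 75.2 CPM in Ctrl (log2 fold change -0.37, edgeR adjusted p = 0.0955). A guide-directed edit need not lower the transcript, so this level does not check the labels. All 10 neuroendocrine markers given here were expressed in every library and summed to 3729 to 4040 CPM in MaxKO and 3763 to 5121 CPM in Ctrl. Of these, Uchl1 was higher (0.41, edgeR adjusted p = 0.0496), Chgb (-0.37, 0.00183) and Scg2 (-0.57, 0.00729) were lower, and 7, among them Chga, Insm1 and Syp, did not pass the threshold. Calca was at 524 to 589 CPM in MaxKO, against 1980 and 1783 CPM in Ctrl 1 and 2 and 399 and 467 CPM in Ctrl 3 and 4. The 5 endothelial markers summed to at most 0.949 CPM in MaxKO and 1.61 CPM in Ctrl, with Emcn at 0. The 5 haematopoietic markers reached at most 4.13 CPM in MaxKO and 5.64 CPM in Ctrl. The 7 fibroblast markers summed to 49.3 to 65.8 CPM in MaxKO and 25.3 to 45.1 CPM in Ctrl. Almost all of it was Dcn, which was higher (0.77, edgeR adjusted p = 0.0124), while Col1a1 lay under 1 CPM and Lum at 0. Pdgfra was lower (-2.37, edgeR adjusted p = 0.00423), at 1, 5, 5 and 5 reads in MaxKO 1 to 4. Against these stood 24, 19, 31 and 14 reads in Ctrl 1 to 4, through which Pdgfra passed the filter on low counts. The 7 markers of other lung epithelium summed to 11.1 to 12.6 CPM in MaxKO and 10.4 to 13.4 CPM in Ctrl, with Krt5 at 0 and Hopx higher (0.71, edgeR adjusted p = 0.0458). Neuronal markers, which neuroendocrine cells share, summed to 472 to 499 CPM in MaxKO and 446 to 613 CPM in Ctrl over 4 genes. Among them Snap25 was higher (0.55, edgeR adjusted p = 0.00334), and Elavl4 (-0.66, 0.000363) and Rbfox3 (-3.41, 0.0462) were lower. Rbfox3 was at 0.133 to 0.610 CPM in MaxKO and at 0.705, 2.17, 13.2 and 0.673 CPM in Ctrl 1 to 4, with Ctrl 3 far above the other controls. In reads, Rbfox3 had 6, 2, 9 and 7 in MaxKO 1 to 4 and 14, 36, 180 and 12 in Ctrl 1 to 4. Like Pdgfra, Rbfox3 passed the filter on low counts through the controls. The part of these marker differences in the results was not tested.

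Ctrl libraries varied more among themselves than MaxKO libraries. Over the 51 tested axon guidance genes, the median coefficient of variation was 11.4% among knockout libraries and 19.6% among controls, and 37 of the 51 genes varied more among controls. Ctrl 3 was the highest of all 8 libraries for 18 of these genes and the lowest for 12, while MaxKO 1 was the lowest for 13. Reads assigned to no gene made up 20.5% to 21.5% in MaxKO, 18.5% and 18.6% in Ctrl 1 and 2, and 23.3% and 23.4% in Ctrl 3 and 4. The part of this split in the results was not tested, and fits with each pair of controls are given beside the genes whose call they changed. Over all tested genes, log CPM correlated at 0.995 between Ctrl 1 and 2 but at 0.983 between Ctrl 3 and 4. Ctrl 4 was as near to Ctrl 1 and 2 (0.982 and 0.983) and to MaxKO libraries (0.980 to 0.982), so Ctrl 3 and 4 were not a close pair.

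Of the 69 genes, 51 passed the filter on low counts and 18 did not. Among the 51 tested genes, 7 were called higher in MaxKO and 16 lower, where 10.9% of all tested genes were called higher and 12.2% lower. The share called in either direction was 45.1% of the tested axon guidance genes, against 23.1% of all tested genes. Over all genes, 1457 were higher and 1627 lower, and upper-quartile scaling moved this to 1160 and 1965. Falls of at least 2-fold were called for 9 genes and rises of at least 2-fold for 2, beside 3.74% (falls) and 1.16% (rises) of all tested genes. The 4 knockout values lay below all 4 control values for 14 genes (13.1% of all tested genes) and above them for 5 (13.4% of all tested genes). The median log2 fold change was -0.30 over the 51 genes and -0.0036 over all tested genes. A gene with low counts enters the tested set only if enough libraries are high, and these can all belong to the same group. These figures therefore describe the genes and are not evidence about the families.

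By role, the falls included ligands of all 4 systems. Of 27 tested ligands, 11 were lower and 2 higher (12.2% and 10.9% of all tested genes), with a median log2 fold change of -0.41. Of 24 tested receptors and co-receptors, 5 were lower and 5 higher, beside the same shares of all tested genes, with a median of -0.08. The difference between ligands and receptors was not tested. With only Ctrl 1 and 2 kept, 12 of 52 tested members were higher (22% of all genes in that fit) and 21 lower (22.6%), and with only Ctrl 3 and 4 kept, 5 were higher (9.39%) and 21 lower (11.3%). Of the reported calls, 14 of the 16 falls and 3 of the 7 rises (Ephb6, Unc5b and Sema4d) were called with either pair of controls. The share of calls kept in this way over all tested genes was not computed. These counts therefore describe single genes and are not a result about the families. In bulk RNA, fewer cells of a type and less RNA per cell cannot be told apart.

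**Figure D1:**
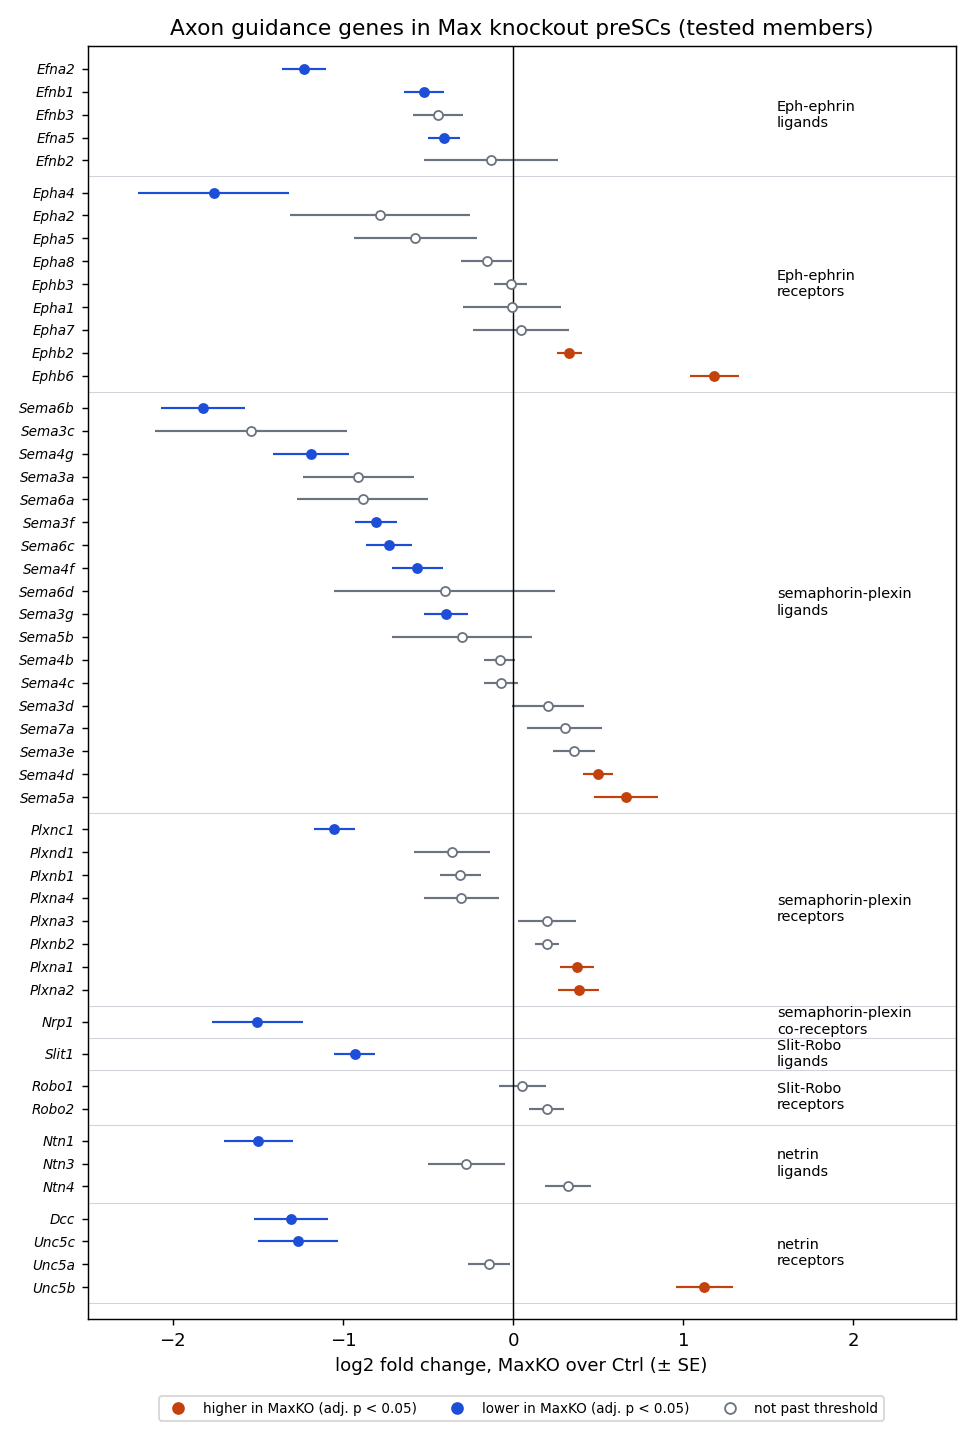
Log2 fold changes of knockout over control (x axis, bars are SE, n = 4 libraries each) for the 51 tested axon guidance genes, grouped by system and by ligand, receptor or co-receptor. Filled orange points are the 7 genes called higher and filled blue points the 16 called lower. Open grey points did not pass the threshold. All 5 ephrins lie left of 0 in this fit, although Efnb2 changes side in others, and Ephb6 and Unc5b lie farthest to the right.

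MAX dimers bind the E-box CACGTG, and promoter sequences are shown because the series targets that protein. RefSeq promoters of GRCm38.p6, from 250 bases before to 50 bases after each start, were at hand for 59 of the 69 genes. The E-box, which reads the same on both strands, was found in promoters of 5 of the 59, namely Epha8, Robo2, Sema3e, Sema4b and Sema6d, and none of these was called. It was found in none of the 18 called genes with a promoter, where 8.09% of all 27025 genes with a promoter held it (7.15% of 32851 promoters). The related hexamer CACGCG, searched with its reverse complement CGCGTG and not overlapping the E-box, was found in 9 of the 59 genes (10.5% of all genes), among them the called genes Plxna2, Sema5a, Unc5b, Efna5 and Nrp1. GGCGGGAA, a motif of E2F proteins, or its reverse complement TTCCCGCC was found in 2 genes, Sema3g and Sema4a (2.52% of all genes). These matches are letters in a window and not measured binding. The promoters of Sema3e (chr5:14025026-14025325, + strand) and of the most upstream Robo2 start (chr16:75447244-75447543, - strand) hold the E-box, while those of Nrp1 (chr8:128358823-128359122, + strand), which fell, and Unc5b (chr10:60831532-60831831, - strand), which rose, hold only CACGCG or CGCGTG. Capitals mark these hexamers, and each sequence is given 5′ to 3′ on the strand of its gene.
Sema3e: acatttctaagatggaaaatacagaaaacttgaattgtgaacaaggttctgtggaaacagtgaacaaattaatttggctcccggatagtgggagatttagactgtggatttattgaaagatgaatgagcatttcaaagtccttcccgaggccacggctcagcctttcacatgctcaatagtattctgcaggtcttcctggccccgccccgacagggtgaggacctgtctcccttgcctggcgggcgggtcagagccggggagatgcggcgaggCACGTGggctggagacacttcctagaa
Robo2: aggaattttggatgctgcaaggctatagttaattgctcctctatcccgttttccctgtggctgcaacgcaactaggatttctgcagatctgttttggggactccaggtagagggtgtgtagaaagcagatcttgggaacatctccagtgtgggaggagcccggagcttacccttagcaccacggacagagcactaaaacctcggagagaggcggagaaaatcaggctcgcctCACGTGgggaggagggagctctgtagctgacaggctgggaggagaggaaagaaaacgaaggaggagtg
Nrp1: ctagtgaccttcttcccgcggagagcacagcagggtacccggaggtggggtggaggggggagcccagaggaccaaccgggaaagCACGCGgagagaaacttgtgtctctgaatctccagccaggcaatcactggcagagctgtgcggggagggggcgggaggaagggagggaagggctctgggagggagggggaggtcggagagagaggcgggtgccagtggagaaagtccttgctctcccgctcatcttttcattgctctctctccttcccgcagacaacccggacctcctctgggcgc
Unc5b: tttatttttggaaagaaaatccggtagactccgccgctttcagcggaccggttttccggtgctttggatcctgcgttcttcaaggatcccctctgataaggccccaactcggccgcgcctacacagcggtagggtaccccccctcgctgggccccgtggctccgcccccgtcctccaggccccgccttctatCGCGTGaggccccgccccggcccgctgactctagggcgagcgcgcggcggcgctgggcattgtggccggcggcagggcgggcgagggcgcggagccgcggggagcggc
The hexamer begins 23 bases after the start in Sema3e, and 18, 166 and 58 bases before it in Robo2, Nrp1 and Unc5b.

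Among the ephrins, 3 of 5 tested ligands fell and none rose (12.2% and 10.9% of all tested genes). Efna2, a lipid-anchored ligand of the EphA receptors, was at 7.36, 5.51, 7.11 and 7.98 CPM in MaxKO 1 to 4, against 15.3, 17.6, 17.9 and 14.9 CPM in Ctrl 1 to 4. Every knockout library was below every control, and the mean fell to 6.99 ± 1.05 CPM in MaxKO, against 16.4 ± 1.51 CPM in Ctrl (SD, n = 4 each; log2 fold change -1.23, SE 0.13, edgeR adjusted p = 8.53e-05). The log2 fold change of Efna2 was -1.23 with either pair of controls. Efna5, another lipid-anchored ephrin and the most abundant ephrin per exon length, was at 72.2 ± 4.67 CPM in MaxKO and 95.8 ± 12.6 CPM in Ctrl (-0.41, edgeR adjusted p = 0.00959), and at -0.27 with only Ctrl 1 and 2. Efnb1, a transmembrane ligand that can itself signal backwards into its own cell, was at 26.2 ± 3.66 CPM in MaxKO and 37.5 ± 4.59 CPM in Ctrl (-0.52, edgeR adjusted p = 0.00758).

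The other transmembrane ephrins did not pass the threshold. Efnb3 lay at 5.62 to 7.66 CPM in MaxKO and 7.30 to 9.81 CPM in Ctrl (-0.44, edgeR adjusted p = 0.0505), and it was called lower with RLE or upper-quartile scaling, by DESeq2 and with only Ctrl 3 and 4 (-0.61, adjusted p = 0.0157), among others. Efnb2, a ligand also known from arterial endothelium, was at 26.6, 29.3, 24.9 and 32.0 CPM in MaxKO 1 to 4, against 52.4, 41.7, 14.4 and 13.9 CPM in Ctrl 1 to 4. All 4 knockout libraries thus lay between the control pairs. Its log2 fold change of -0.13 (edgeR adjusted p = 0.855) became -0.75 with only Ctrl 1 and 2 (adjusted p = 1.58e-05) and 0.98 with only Ctrl 3 and 4 (adjusted p = 0.000192), so its direction depended on which controls were used. The ligands Efna1, Efna3 and Efna4 were under the count filter, with 55, 59 and 20 reads over all 8 libraries. Efna3 was called lower with only Ctrl 1 and 2, a fit in which it passed the filter through those 2 libraries. It had 3, 3, 4 and 2 reads in MaxKO 1 to 4 and 27, 15, 3 and 2 reads in Ctrl 1 to 4.

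Eph receptors moved in both directions. Ephb6, a receptor without kinase activity, rose to 44.8 ± 2.86 CPM in MaxKO, against 19.8 ± 4.85 CPM in Ctrl (SD, n = 4 each; log2 fold change 1.18, SE 0.14, edgeR adjusted p = 0.000216). It was at 48.3, 44.8, 44.9 and 41.3 CPM in MaxKO 1 to 4 and at 15.2, 17.6, 19.9 and 26.4 CPM in Ctrl 1 to 4, with no overlap. Relative to exon length, Ephb6 ranked 11 of 51 in MaxKO and 18 of 51 in Ctrl. Ephb2, a kinase that binds ephrin-B ligands, was at 207 ± 6.89 CPM in MaxKO and 165 ± 13.2 CPM in Ctrl (0.33, edgeR adjusted p = 0.00756). The groups did not overlap, although with only Ctrl 3 and 4 the rise of Ephb2 was 0.24 and not called (adjusted p = 0.0618).

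Ephb3, the Eph receptor with the highest mean CPM over all 8 libraries, was at 180, 183, 186 and 227 CPM in MaxKO 1 to 4 and at 190, 194, 177 and 222 CPM in Ctrl 1 to 4. The groups overlapped (-0.01, SE 0.10, edgeR adjusted p = 0.940). Within each library, Ephb6 CPM was 0.182 to 0.269 times Ephb3 CPM in MaxKO and 0.0799 to 0.119 times in Ctrl, a ratio picked after the values were seen and not tested.

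Of the 6 tested EphA receptors, 1 fell (12.2% of all tested genes) and 5 did not pass the threshold. Epha4, which binds ephrins of both classes, was at 0.574, 0.730, 0.406 and 0.893 CPM in MaxKO 1 to 4, against 2.82, 2.17, 3.29 and 0.673 CPM in Ctrl 1 to 4. Ctrl 4 lay within MaxKO range, and the remaining controls lay above it (-1.76, SE 0.44, edgeR adjusted p = 0.0137). In reads, MaxKO 1 to 4 held 11, 11, 6 and 14 for Epha4. Ctrl 1 to 4 held 56, 36, 45 and 12, through which Epha4 passed the filter on low counts. The fall of Epha4 was not called by limma-voom or with only Ctrl 3 and 4 (-1.54, adjusted p = 0.0651). Epha2, a receptor common in epithelia, was at 1.77 to 2.49 CPM in MaxKO, against 6.90 and 5.59 CPM in Ctrl 1 and 2 and 1.32 and 1.01 CPM in Ctrl 3 and 4. Like Efnb2 it was lower against one control pair (-1.53, adjusted p = 2.74e-06) and higher against the other (0.91, adjusted p = 0.0398), and the fit over all controls gave -0.78 (edgeR adjusted p = 0.328). Epha8, the EphA receptor with the highest level, was at 15.5 ± 0.386 CPM in MaxKO and 17.4 ± 4.41 CPM in Ctrl (-0.16, edgeR adjusted p = 0.505). Epha5 (-0.57), Epha1 (-0.0069) and Epha7 (0.05) lay under 4 CPM in every library and did not pass the threshold (edgeR adjusted p = 0.284, 0.990 and 0.926).

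**Figure D2:**
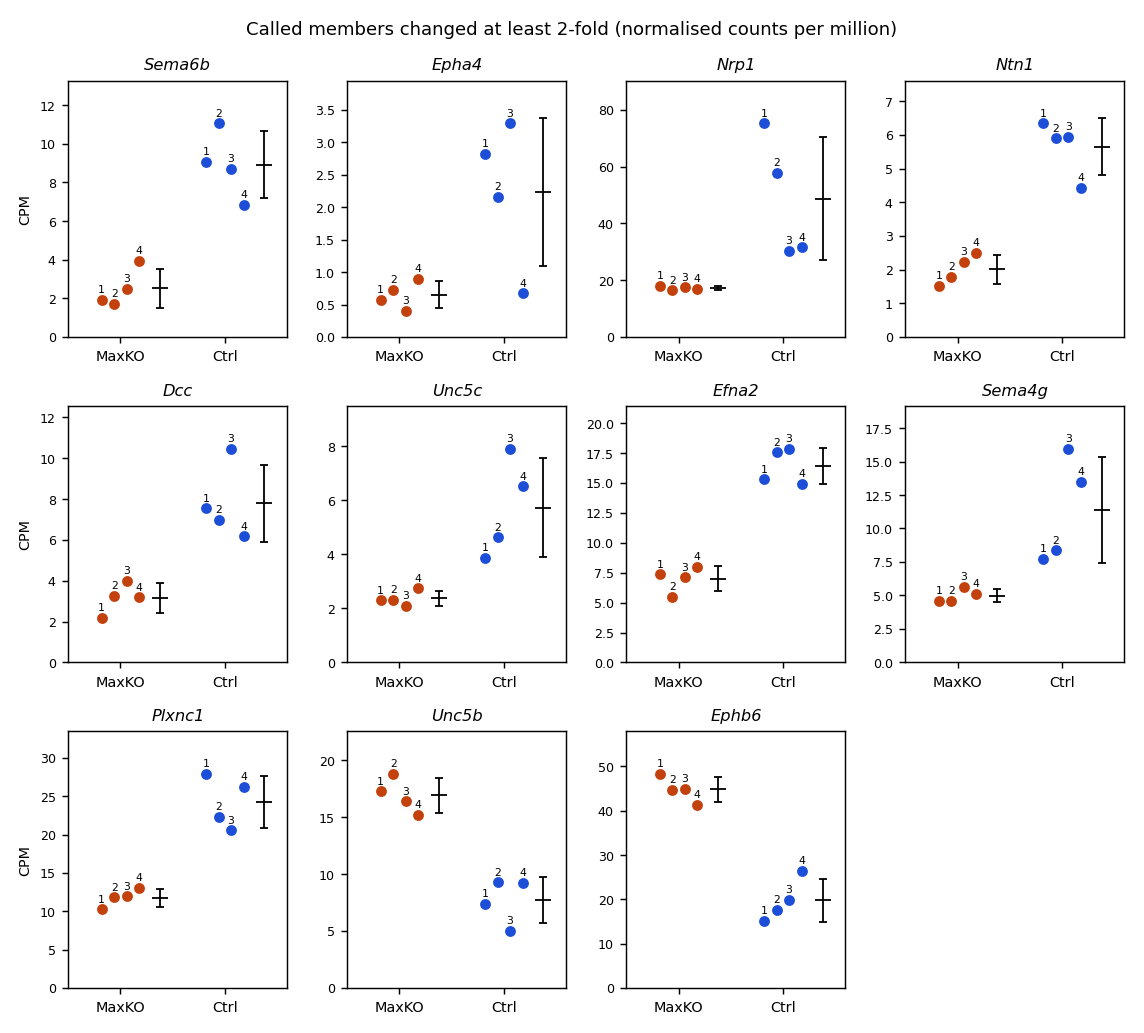
Normalised CPM (y axis, linear from 0) in each library for the 11 called genes that changed at least 2-fold, with MaxKO in orange and Ctrl in blue. Points carry the replicate number and black bars give the mean and SD (n = 4). Among these genes, picked by their calls, knockout and control libraries do not overlap in 10 panels (26.4% of all tested genes). In the Epha4 panel Ctrl 4, at 0.673 CPM, lies among the knockout libraries.

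Among the semaphorins, 6 of 18 tested genes were lower and 2 higher (12.2% and 10.9% of all tested genes). Sema6b, a transmembrane semaphorin that binds A-class plexins, had the lowest log2 fold change of all the called members (-1.82, SE 0.25, edgeR adjusted p = 0.000406). Its level was 1.93, 1.73, 2.51 and 3.96 CPM in MaxKO 1 to 4, against 9.06, 11.1, 8.71 and 6.84 CPM in Ctrl 1 to 4, and the groups did not overlap. Sema6c, of the same transmembrane class, was at 4.49 ± 0.366 CPM in MaxKO and 7.46 ± 0.786 CPM in Ctrl (-0.73, edgeR adjusted p = 0.00284). The other class 6 genes did not pass the threshold. Sema6a was at 1.10 to 1.53 CPM in MaxKO and 0.729 to 3.59 CPM in Ctrl (-0.88, edgeR adjusted p = 0.123), and it was called lower with only Ctrl 1 and 2 (-1.05, adjusted p = 0.00133) and without Ctrl 4. Sema6d was at 3.13 to 4.11 CPM in MaxKO, against 14.1 CPM in Ctrl 3 and 1.74 to 1.96 CPM in the other controls, and its -0.40 became 0.96 without Ctrl 3. It was called higher in that fit and with only Ctrl 1 and 2 (0.94, adjusted p = 0.00148).

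Class 4 semaphorins, which are also membrane-bound, divided between both directions. Sema4g was at 4.59, 4.58, 5.62 and 5.10 CPM in MaxKO 1 to 4, against 7.75, 8.36, 16.0 and 13.5 CPM in Ctrl 1 to 4, with no overlap (-1.19, SE 0.23, edgeR adjusted p = 0.00299). The fall of Sema4g was -0.70 with only Ctrl 1 and 2 and -1.57 with only Ctrl 3 and 4, called in both. Sema4f was at 12.4 ± 1.88 CPM in MaxKO and 18.3 ± 3.44 CPM in Ctrl (-0.56, edgeR adjusted p = 0.0183), but -0.31 with only Ctrl 1 and 2, and its call ended without MaxKO 1 or MaxKO 2 (adjusted p up to 0.0647). Sema4d, the ligand of Plxnb1, rose to 71.5 ± 1.83 CPM in MaxKO, against 50.5 ± 5.85 CPM in Ctrl (0.50, SE 0.09, edgeR adjusted p = 0.00169). Sema4b (-0.08) and Sema4c (-0.07) lay near 0, at 27.3 ± 2.40 and 34.1 ± 4.70 CPM in MaxKO and 28.8 ± 1.94 and 35.8 ± 1.67 CPM in Ctrl.

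Among secreted class 3 semaphorins, 2 of 6 tested genes fell (12.2% of all tested genes). Sema3f was at 9.86 to 13.5 CPM in MaxKO and 18.5 to 22.7 CPM in Ctrl, with no overlap (-0.81, SE 0.12, edgeR adjusted p = 0.000726). Sema3g, another ligand of neuropilin receptors, was at 11.8 ± 1.99 CPM in MaxKO and 15.5 ± 1.24 CPM in Ctrl (-0.39, edgeR adjusted p = 0.0447). The call of Sema3g was lost on dropping a single library in 6 of 8 cases (adjusted p up to 0.133), namely MaxKO 1, 2 or 3 or Ctrl 2, 3 or 4, and with only Ctrl 1 and 2 (0.0528).

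Sema3e, the class 3 ligand that binds Plxnd1 without a neuropilin, had the highest CPM among semaphorins, at 146 to 196 CPM in MaxKO and 110 to 162 CPM in Ctrl (0.36, edgeR adjusted p = 0.0543). It was called higher by DESeq2, with only Ctrl 1 and 2, and without MaxKO 4 or Ctrl 4. Its receptor gene Plxnd1 was at 6.64 ± 0.491 CPM in MaxKO and 8.53 ± 3.20 CPM in Ctrl (-0.36, edgeR adjusted p = 0.276). With only Ctrl 3 and 4 Plxnd1 was called lower (-0.72, adjusted p = 0.0116), and with only Ctrl 1 and 2 it was 0.076 and not called. Sema3d, at 33.8 ± 3.93 CPM in MaxKO and 29.1 ± 9.54 CPM in Ctrl, did not pass the threshold either (0.21, edgeR adjusted p = 0.539).

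For 2 further class 3 genes, Ctrl 3 set the size of the difference. Sema3c was at 0.887 to 1.49 CPM in MaxKO and at 2.72, 2.29, 8.71 and 1.01 CPM in Ctrl 1 to 4 (-1.54, edgeR adjusted p = 0.0744, and -0.70 without Ctrl 3). Sema3a, the ligand of Nrp1 with A-class plexins, was at 2.19 to 4.13 CPM in MaxKO and at 4.88, 4.93, 10.7 and 3.59 CPM in Ctrl 1 to 4 (-0.91, edgeR adjusted p = 0.0664, and -0.50 without Ctrl 3). Both were called lower without Ctrl 4, with only Ctrl 1 and 2, and by DESeq2, and Sema3a also with a term for the replicate number (adjusted p = 0.0337).

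Sema5a, a transmembrane semaphorin with thrombospondin repeats, was at 27.3, 29.5, 24.5 and 16.5 CPM in MaxKO 1 to 4 and at 14.3, 14.2, 12.5 and 20.5 CPM in Ctrl 1 to 4. MaxKO 4 lay below Ctrl 4, and the groups overlapped (0.66, SE 0.19, edgeR adjusted p = 0.0259). Its call ended in 5 of the 8 fits that left out 1 library, without MaxKO 1, 2 or 3 or Ctrl 1 or 2 (adjusted p up to 0.0857), and with a term for the replicate number (adjusted p = 0.0670). With only Ctrl 3 and 4 it was 0.54 and not called (adjusted p = 0.170). Its relative Sema5b was at 4.07 to 4.85 CPM in MaxKO and at 12.2 CPM in Ctrl 3 against 2.71 to 4.15 CPM in the other controls (-0.30, edgeR adjusted p = 0.646), and it was called higher with only Ctrl 1 and 2 (0.55, adjusted p = 0.0199). Sema7a, a lipid-anchored semaphorin, was at 1.78 ± 0.198 CPM in MaxKO and 1.44 ± 0.254 CPM in Ctrl (0.30, edgeR adjusted p = 0.360).

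**Figure D3:**
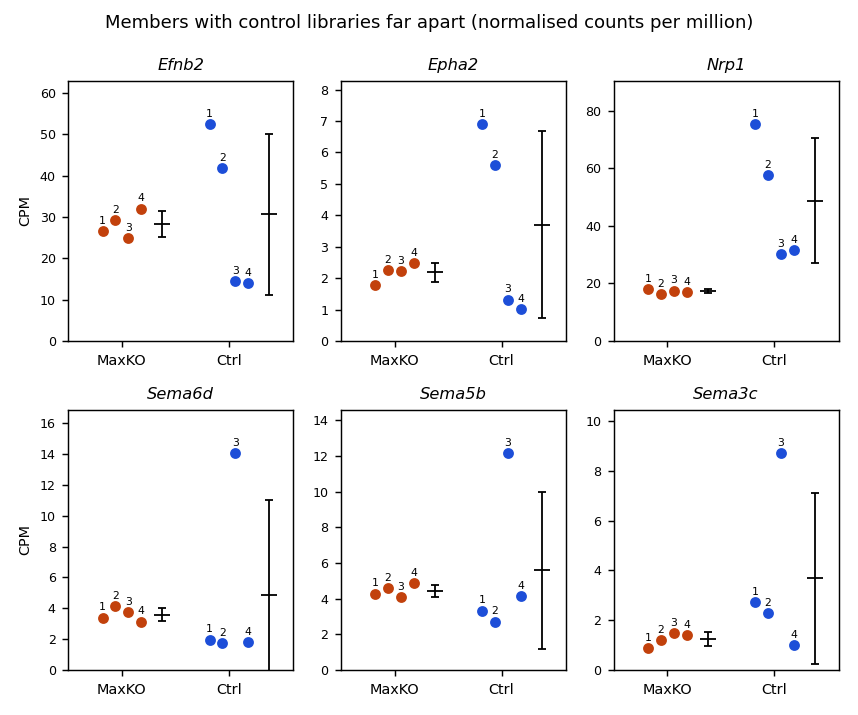
Normalised CPM (y axis, linear from 0) in each library for 6 genes picked after their values were seen because their control libraries lie far apart. MaxKO is orange, Ctrl is blue, points carry the replicate number, and black bars give the mean and SD (n = 4). For Efnb2 and Epha2 the knockout libraries lie between Ctrl 1 and 2 above and Ctrl 3 and 4 below, for Nrp1 they lie below both pairs, and for Sema6d, Sema5b and Sema3c Ctrl 3 stands alone. The lower SD bar of Sema6d in Ctrl passes 0 and is cut there.

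The plexins and neuropilins also moved in both directions. Nrp1, the co-receptor of Sema3a that also binds VEGF-A, was at 18.1, 16.4, 17.5 and 17.0 CPM in MaxKO 1 to 4, against 75.3, 57.7, 30.3 and 31.6 CPM in Ctrl 1 to 4. The knockout libraries were all below the controls and close to each other, while the controls formed a high and a low pair. Nrp1 fell 2.83-fold in the fit over all libraries (-1.50, SE 0.26, edgeR adjusted p = 0.00246), by -1.95 with only Ctrl 1 and 2 and by -0.85 with only Ctrl 3 and 4, called in both. Plxnc1, the receptor of Sema7a, was at 10.2, 11.8, 11.9 and 13.0 CPM in MaxKO 1 to 4, against 27.9, 22.3, 20.6 and 26.2 CPM in Ctrl 1 to 4, with no overlap (-1.05, SE 0.12, edgeR adjusted p = 0.000136).

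The A-class plexins, which signal for class 3 and class 6 semaphorins, had 2 of 4 members higher (10.9% of all tested genes). Plxna1 was at 136 ± 10.6 CPM in MaxKO and 105 ± 14.5 CPM in Ctrl (0.38, edgeR adjusted p = 0.0180), and Plxna2 was at 199 ± 14.1 CPM in MaxKO and 152 ± 30.5 CPM in Ctrl (0.38, edgeR adjusted p = 0.0413). For both, Ctrl 4 lay within MaxKO range. The call of Plxna1 ended without MaxKO 2, MaxKO 4 or Ctrl 2 (adjusted p up to 0.0642), and that of Plxna2 on dropping any single library except Ctrl 4 (adjusted p up to 0.116) and with upper-quartile scaling. Neither was called with only Ctrl 3 and 4 (0.23 and 0.32, adjusted p = 0.127 and 0.182). Plxna3 (0.20) and Plxna4 (-0.30) did not pass the threshold, and both differed in direction between the control pairs. Plxna3 was called higher with only Ctrl 1 and 2 (0.60, adjusted p = 1.33e-05) and was -0.13 and not called with only Ctrl 3 and 4. Plxna4 was called lower with only Ctrl 3 and 4 (-0.66, adjusted p = 0.00274) and without Ctrl 1, and was 0.15 and not called with only Ctrl 1 and 2. Plxna4 lay at 41.7 to 43.1 CPM in MaxKO and from 30.4 CPM in Ctrl 1 to 78.8 CPM in Ctrl 4.

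Plxnb2, a B-class plexin, had the highest mean CPM of all plexins over the 8 libraries. It was at 309, 322, 299 and 311 CPM in MaxKO 1 to 4 and at 270, 261, 259 and 291 CPM in Ctrl 1 to 4. The groups did not overlap, and 0.20 (SE 0.07) missed the threshold (edgeR adjusted p = 0.0575), though Plxnb2 was called by DESeq2, with only Ctrl 1 and 2, and without Ctrl 4. Plxnb1, the Sema4d receptor, was at 202 ± 21.2 CPM in MaxKO and 251 ± 44.2 CPM in Ctrl (-0.31, edgeR adjusted p = 0.0880), and -0.50 with only Ctrl 3 and 4, where it was called lower. It was also called lower without Ctrl 2 and with a term for the replicate number. The ligand Sema4d thus had a called rise, and the difference of its receptor did not pass the threshold with all 4 controls.

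In the Slit-Robo system the ligand changed and the receptors did not pass the test. Slit1 was at 14.5, 20.2, 21.0 and 21.3 CPM in MaxKO 1 to 4, against 34.8, 34.5, 37.5 and 39.6 CPM in Ctrl 1 to 4. The groups did not overlap, with means of 19.2 ± 3.22 CPM in MaxKO and 36.6 ± 2.40 CPM in Ctrl (SD, n = 4 each; -0.93, SE 0.12, edgeR adjusted p = 0.000294). Robo1, the most abundant of all 69 genes in CPM, was at 494, 614, 571 and 614 CPM in MaxKO 1 to 4 and at 620, 553, 399 and 637 CPM in Ctrl 1 to 4. The groups overlapped (0.05, SE 0.14, edgeR adjusted p = 0.820), and the sign of this small difference turned without Ctrl 3 (-0.07). Robo2 was at 13.3 to 14.9 CPM in MaxKO and 10.5 to 13.5 CPM in Ctrl (0.20, edgeR adjusted p = 0.203).

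Within each library, Robo1 CPM was 27.2 to 34.2 times Slit1 CPM in MaxKO and 10.6 to 17.8 times in Ctrl, a ratio picked after the values were seen. Slit2 had 1, 4, 4 and 2 reads in MaxKO 1 to 4 and 22, 6, 51 and 3 reads in Ctrl 1 to 4. Slit3 was listed at 0 in every library, where 3 counts would be 0.151 to 0.219 CPM, and since the annotation behind the counts is not given this is not read as absence. Robo3 had 2 reads in MaxKO, all in MaxKO 4, and 8 in Ctrl, all in Ctrl 1 and 2. Robo4, a receptor of endothelium, had 1 read in all, in Ctrl 3, beside endothelial markers near 0.

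Netrin genes included both a called rise and called falls of at least 2-fold. Ntn1, the classical netrin, was at 1.51, 1.79, 2.24 and 2.49 CPM in MaxKO 1 to 4, against 6.34, 5.89, 5.93 and 4.43 CPM in Ctrl 1 to 4. The groups did not overlap, and Ntn1 fell 2.82-fold (-1.50, SE 0.20, edgeR adjusted p = 0.000396). Its attractive receptor Dcc was at 2.19, 3.25, 4.00 and 3.19 CPM in MaxKO 1 to 4, against 7.55, 6.98, 10.5 and 6.17 CPM in Ctrl 1 to 4, again without overlap (-1.31, SE 0.22, edgeR adjusted p = 0.00128).

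The repulsive receptors of the Unc5 family went different ways. Unc5c was at 2.30, 2.32, 2.10 and 2.74 CPM in MaxKO 1 to 4, against 3.88, 4.63, 7.91 and 6.51 CPM in Ctrl 1 to 4, with no overlap (-1.26, SE 0.23, edgeR adjusted p = 0.00257, and -0.84 with only Ctrl 1 and 2). Unc5b, which is also known from vessels, was at 17.3, 18.8, 16.4 and 15.2 CPM in MaxKO 1 to 4, against 7.40, 9.26, 4.98 and 9.20 CPM in Ctrl 1 to 4. Every knockout library was above every control (1.12, SE 0.17, edgeR adjusted p = 0.000726). Unc5a, the most abundant family member, was at 76.7 ± 2.03 CPM in MaxKO and 84.6 ± 17.6 CPM in Ctrl, and its -0.14 did not pass the threshold (edgeR adjusted p = 0.454). With only Ctrl 3 and 4 it was called lower (-0.37, adjusted p = 0.0126), and with only Ctrl 1 and 2 it was 0.11 and not called.

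Within each library, Unc5b CPM was 5.53 to 8.09 times Unc5c CPM in MaxKO and 0.630 to 2.00 times in Ctrl, and 4.10 to 7.88 times Dcc CPM in MaxKO and 0.476 to 1.49 times in Ctrl. These ratios were picked after the values were seen and were not tested. Ntn4, a netrin of basement membranes that binds laminin, was the most abundant of the 51 genes relative to exon length. It was at 196, 233, 210 and 179 CPM in MaxKO 1 to 4 and at 186, 173, 116 and 179 CPM in Ctrl 1 to 4, and the overlapping groups did not differ past the threshold (0.32, SE 0.14, edgeR adjusted p = 0.115). Ntn3 was at 1.79 ± 0.238 CPM in MaxKO and 2.19 ± 0.525 CPM in Ctrl (-0.27, edgeR adjusted p = 0.424).

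Relative to exon length (GENCODE M21, a build other than that of the counts, so that lengths are approximate), the order of levels was led by the same 5 genes in both groups. Mean CPM per kb of exon was 54.7 in MaxKO and 43.7 in Ctrl for Ntn4, 40.2 and 35.0 for Plxnb2, 34.7 and 33.4 for Robo1, 29.2 and 29.5 for Ephb3, and 21.1 and 26.1 for Plxnb1. None of these 5 genes was called (23.1% of all tested genes were). The called genes with the highest level per kb were Efna5, Ephb2 and Plxna1, at 17.9, 16.4 and 15.0 in MaxKO and 23.8, 13.1 and 11.5 in Ctrl. The 9 genes with called falls of at least 2-fold were at 0.0808 to 3.28 CPM per kb in MaxKO and 0.278 to 7.70 in Ctrl.

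**Figure D4:**
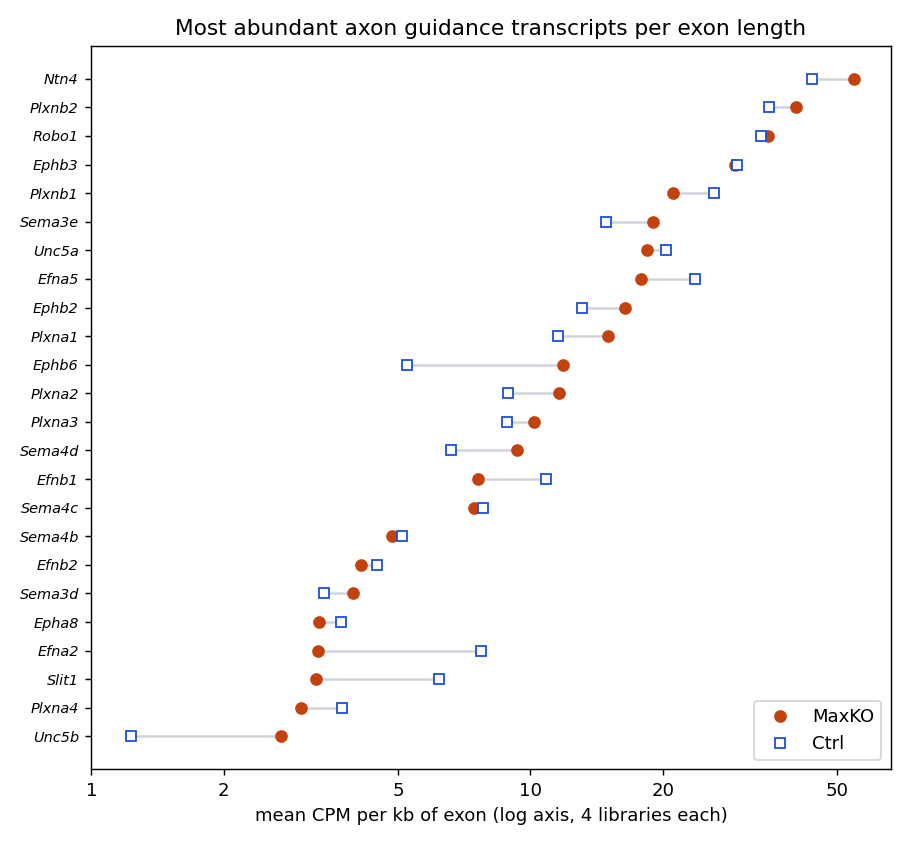
Mean CPM per kb of exon (log x axis, 4 libraries each) for the 24 tested genes with the highest level in MaxKO, ordered by that level. Orange circles are MaxKO and open blue squares are Ctrl, joined by a grey line. The first 5 genes keep their order in both groups, while Ephb6, Efna2, Slit1 and Unc5b show wide gaps between the markers.

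The 18 genes under the count filter were Efna1, Efna3, Efna4, Epha3, Epha6, Epha10, Ephb1, Ephb4, Nrp2, Ntn5, Plxnb3, Robo3, Robo4, Sema3b, Sema4a, Slit2, Slit3 and Unc5d, with 0 to 95 reads each over all 8 libraries. Nrp2, the neuropilin that Sema3f prefers, had 3, 5, 5 and 4 reads in MaxKO 1 to 4 and 13, 8, 48 and 8 reads in Ctrl 1 to 4. Epha10, a receptor without kinase activity, had 2, 0, 2 and 2 reads in MaxKO and 11, 8, 8 and 8 reads in Ctrl. In a fit without the filter, Epha10, Efna4 and Sema4a were called lower (edgeR adjusted p = 0.00801, 0.0487 and 0.0333), at 0 to 9 reads a library in MaxKO and 1 to 25 in Ctrl. Sema4a was also called lower with only Ctrl 3 and 4, a fit in which it passed the filter through those controls. The vessel receptor Ephb4 had 14 reads in MaxKO and 16 in Ctrl. In GRCm38, 23.4% of the exon bases of Ntn5 and 6.01% of those of Epha1 overlap another gene on the opposite strand (Sec1 and Zyx), so their counts are uncertain without strand.

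Other genes of guidance signalling were described from 2 lists. Of 13 tested co-receptors and other cues, 4 were higher and 3 lower (10.9% and 12.2% of all tested genes). Cntn2, an axonal adhesion protein gene, fell to 0.929 ± 0.244 CPM in MaxKO, against 4.30 ± 0.896 CPM in Ctrl (-2.22, SE 0.25, edgeR adjusted p = 0.000125). Cxcr4, the receptor of the chemokine CXCL12, rose to 39.1 ± 3.04 CPM in MaxKO, against 18.8 ± 3.30 CPM in Ctrl (1.05, SE 0.12, edgeR adjusted p = 0.000146). Ryk, a Wnt receptor of axons, fell (-0.61, edgeR adjusted p = 0.000159), and L1cam, an adhesion molecule, rose (0.90, edgeR adjusted p = 0.0140). L1cam was at 69.0 to 77.5 CPM in MaxKO, against 26.2 and 27.6 CPM in Ctrl 1 and 2 and 49.6 and 56.5 CPM in Ctrl 3 and 4. The groups did not overlap for either gene (true of 26.4% of all tested genes), but both were picked by smallest p.

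Of 50 tested intracellular effectors, 13 were higher and 9 lower (10.9% and 12.2% of all tested genes), and their median log2 fold change was 0.02. Chn2, which encodes a chimaerin that switches off Rac, fell to 8.76 ± 1.61 CPM in MaxKO, against 28.1 ± 2.24 CPM in Ctrl (-1.69, SE 0.13, edgeR adjusted p = 1.75e-05). The adaptor gene Nck1 fell (-0.87, edgeR adjusted p = 0.000210). Gipc1, whose product binds the tail of neuropilin 1, rose (0.49, edgeR adjusted p = 0.000535), and so did the actin-binding gene Ablim1 (1.02, edgeR adjusted p = 0.000549). For each of these 4 genes, picked by smallest p, the knockout and control libraries did not overlap (26.4% of all tested genes). That choice favours genes without overlap, so this adds no support.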

How the data were processed

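RNA was measured in 8 libraries of preSC cells, 4 per group. The deposited files hold raw counts per gene symbol, for which the submitters' processing notes list the authors' tools as HTSeq 0.6.1, TopHat2 2.0.12 and bcl2fastq 1.8.4, and the build as mm9. The sources used here do not give the annotation or the strand setting. HTSeq's summary lines were left out of library sizes, and reads in no gene made up 18.5% to 23.4%.

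Genes were kept with filterByExpr, scaled with TMM and tested in R 4.3.3 with edgeR 4.0.16 (glmQLFit, robust = TRUE, group as the only term) with Benjamini-Hochberg adjustment over all 13358 tested genes. Each SE is the absolute log2 fold change over the square root of F. The procedure was tested on simulated counts. Alternatives used RLE and upper-quartile scaling, other filters, DESeq2 1.42.0, limma-voom (limma 3.58.1), no robust estimation, a replicate term, 8 fits that each left out 1 library, and fits with 1 pair of controls. Full per-library values are given for called genes changed at least 2-fold and for the gene with the highest mean CPM of each system. Other called genes are given by means or ranges, uncalled genes by level within a system (up to 4), and the 4 called genes with the smallest p of each pathway list. Further genes were named after their values were seen. Members, lists, rules and tests were chosen with earlier results of these data known. Draxin and Map2 of the lists had no row under these symbols. One marker result is not reported here. Floors cover counting error only.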

Additional observations from a re-analysis of the deposited data

Results flagged for a closer look

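In 7 of the 102 groups of 4 libraries (51 genes, 2 groups each), 1 library lay farther from the others than Dixon's critical value, where chance gives about 1 in 20. In the knockout, MaxKO 4 was at 227 CPM for Ephb3 (others 180 to 186) and at 5.04 CPM for Sema6c (others 4.28 to 4.34), and MaxKO 1 was at 14.5 CPM for Slit1 (others 20.2 to 21.3). In the control, Ctrl 4 was at 22.7 CPM for Sema3f (others 18.5 to 18.9) and at 1.07 CPM for Sema7a (others 1.54 to 1.61). Ctrl 3 was at 12.2 CPM for Sema5b (others 2.71 to 4.15) and at 14.1 CPM for Sema6d (others 1.74 to 1.96).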

How the results depend on the processing

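Refits of single genes kept direction and side of the threshold 815 times, gained a call 38 times, lost one 32 times, and turned direction 36 times, 5 of which are among the gained calls (Efnb2, Epha2, Sema5b and Sema6d). With only Ctrl 1 and 2 the counts became 2987 higher and 3081 lower genes in all (1457 and 1627 as reported) and 12 higher members (7 as reported), and fits that left out 1 library gave 963 to 1846 higher and 1139 to 1929 lower genes, and 4 to 9 higher and 14 to 18 lower members. Upper-quartile scaling shifted the median of all genes to -0.05 and gave 1160 higher and 1965 lower genes (62.9% of its calls lower), with 6 members higher and 17 lower. Equal replicate numbers did not pair the libraries (correlations of deviations -0.200 to 0.00198); a replicate block gave 1208 higher and 1324 lower genes, and 6 higher and 18 lower members.

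All of these turns were in 14 genes that were not called with all libraries. With only Ctrl 1 and 2 the log2 fold change was 0.075 for Epha1, -0.35 for Epha7, 0.056 for Epha8, 0.013 for Ephb3, 0.15 for Plxna4, 0.076 for Plxnd1, -0.037 for Robo1, -0.070 for Sema3d, 0.55 for Sema5b, 0.94 for Sema6d and 0.11 for Unc5a. With only Ctrl 3 and 4 it was 0.98 for Efnb2, 0.91 for Epha2 and -0.13 for Plxna3. With limma-voom it was 0.090 for Efnb2, 0.0066 for Sema5b and 0.32 for Sema6d, and with the replicate block 0.081 for Efnb2 and 0.15 for Sema6d. On dropping single libraries the range was -0.37 to 0.26 for Efnb2, -0.22 to 0.17 for Epha1, -0.14 to 0.30 for Epha7, -0.27 to 0.023 for Epha8, -0.10 to 0.054 for Ephb3, -0.074 to 0.13 for Robo1, -0.54 to 0.38 for Sema5b and -0.69 to 0.96 for Sema6d. Causes of these turns were not tested.

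At this depth 1 read was 0.0505 to 0.0729 CPM, so the 18 genes under the filter could show only large differences.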
